A study of Rattus norvegicus with 8 samples.

Results

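The AP-1 and small Maf factors are basic leucine zipper (bZIP) transcription factors. Of the 10 genes of this group, namely Fos, Fosb, Fosl2, Jun, Junb, Jund, Atf3, Maff, Mafk and Mafg, 9 were measured among 14506 named genes. Members were chosen by name, as probe sets whose only gene symbol, or its current synonym by gene ID, is one of the 10, and where a gene had several, the one brightest on average was taken. The expression of Fosb is not analysed here, and Fosl2 had 2 probe sets, so 10 probe sets were read in all. Whole livers of male Wistar rats aged 6 to 10 weeks were isolated and perfused with Krebs-Henseleit buffer, a physiological salt solution. The 4 hypoosmotic samples had received this buffer at 225 mosm/L and the 4 normoosmotic samples at 305 mosm/L, with 120 min as the labelled time for each. All 8 samples share the perfusion outside the body, and unperfused liver is not analysed here. Nothing in the labels says that each sample was a different animal. All p-values therefore rest on sample-to-sample spread, part of which may be technical.

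AP-1 is a dimer. A Jun protein pairs with a Fos protein, with another Jun protein or with a relative such as Atf3, and the pair binds a short palindromic DNA element. The genes of Fos, Jun, Junb, Atf3 and Maff are early response genes whose mRNAs are made within minutes of a stimulus and decay quickly, and in liver they respond to injury, regrowth and cytokines. The small Maf proteins Maff, Mafg and Mafk lack a transactivation domain, and they act as repressors when paired with each other or as activators when paired with Nrf2 and its relatives. A hypoosmotic medium swells hepatocytes, and such swelling is known to act on MAP kinases, which control AP-1.

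The promoters of Maff, Mafk, Mafg and Jund are shown for these reasons. The first 2 read lower in hypoosmotic than in normoosmotic livers without overlap, though only Maff passed the test described below. Mafg shares their function, and Jund shares an element with Maff. RefSeq promoter windows (assembly GRCr8) were found for 7 of the 10 genes, Fosb included, and not for Fos, Jun and Atf3. The 250 bases before the gene start are given 5′ to 3′ on the strand of the gene. Capitals mark matches to the motifs named after the sequences.
Maff promoter, chr7:112792537-112792786, plus strand: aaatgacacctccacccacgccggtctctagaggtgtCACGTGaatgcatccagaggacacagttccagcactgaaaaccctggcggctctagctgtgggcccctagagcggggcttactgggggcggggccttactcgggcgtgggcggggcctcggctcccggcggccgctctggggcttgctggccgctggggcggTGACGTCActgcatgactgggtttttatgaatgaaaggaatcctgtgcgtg
Mafk promoter, chr12:19959193-19959442, minus strand: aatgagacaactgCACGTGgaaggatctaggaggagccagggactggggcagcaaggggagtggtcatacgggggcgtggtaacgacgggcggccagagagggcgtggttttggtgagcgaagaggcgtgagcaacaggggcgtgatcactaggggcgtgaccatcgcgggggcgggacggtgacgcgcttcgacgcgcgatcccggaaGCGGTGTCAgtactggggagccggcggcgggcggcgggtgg
Mafg promoter, chr10:106410133-106410382, minus strand: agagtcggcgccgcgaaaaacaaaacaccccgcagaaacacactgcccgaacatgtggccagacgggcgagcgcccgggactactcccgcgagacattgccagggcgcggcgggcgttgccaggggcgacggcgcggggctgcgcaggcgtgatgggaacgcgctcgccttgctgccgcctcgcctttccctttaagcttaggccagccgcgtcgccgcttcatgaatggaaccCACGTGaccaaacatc
Jund promoter, chr16:18769772-18770021, minus strand: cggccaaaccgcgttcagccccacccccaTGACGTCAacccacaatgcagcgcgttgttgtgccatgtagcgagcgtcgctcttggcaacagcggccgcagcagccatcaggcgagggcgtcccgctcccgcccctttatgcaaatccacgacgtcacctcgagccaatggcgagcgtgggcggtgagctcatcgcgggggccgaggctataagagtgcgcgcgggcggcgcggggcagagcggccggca

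The motifs searched on both strands were TGACGTCA (the cyclic AMP response element, which dimers with Atf or Creb proteins bind), TGANTCA (the AP-1 element), TGACNNNGC (the core of the antioxidant response element, bound by Nrf2 with a small Maf) and CACGTG (the E-box). The element called CArG, bound by Srf, and the element called TonE, bound by Nfat5, were searched as well. TGACGTCA and TGACNNNGC share their opening TGAC but differ further on, so no site matched both. TGACGTCA stood in the windows of Maff and Jund, starting 51 and 221 bases before the gene start, and in 1.59% of 33469 rat promoter windows of the same length. CACGTG stood in the windows of all 3 small Maf genes, starting 213 bases before the start in Maff, 237 in Mafk and 16 in Mafg, against 5.59% of all windows. TGACNNNGC was found in the window of Mafk alone, on the reverse strand, against 10.1% of all windows. TGANTCA (6.34% of all windows), CArG (1.5%) and TonE (5.17%) had no match in the 7 windows. The promoters of Fos, Jun and Atf3 were not searched for any motif. The motifs were chosen after the members' sequences had been seen, and a match is a description of letters only.

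Hypoosmotic livers had less Maff mRNA, and the other 8 measured members did not pass the test. By limma with Benjamini-Hochberg adjustment over all named genes, 1 of the 9 members, Maff, was lower at an adjusted p under 0.05, where 1.42% of all genes were lower. No member was called higher: the count was 0, with 1 member, Fosl2, higher at an unadjusted p under 0.05, where 0.558% of all genes were called higher and 6.6% were higher at that unadjusted p. At an unadjusted p under 0.05, 4 members were lower (Jun, Atf3, Maff and Mafk), where 7.97% of all genes were. By mean level the members stood between percentiles 70 (Fos) and 95 (Atf3) of all genes, so the shares given here include many dimmer genes. In both Maff and Mafk all 4 hypoosmotic readings lay below all 4 normoosmotic ones, which held for 5.05% of all genes. For 0 members did all hypoosmotic readings lie above the normoosmotic ones, which held for 3.21% of all genes. The median log2 change, hypoosmotic minus normoosmotic, was −0.13 over the 9 members and 0.04 over all genes, and 5 members lay below 0 and 4 above. In bulk tissue, fewer cells of a type and less mRNA per cell cannot be told apart.

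**Figure D1:**
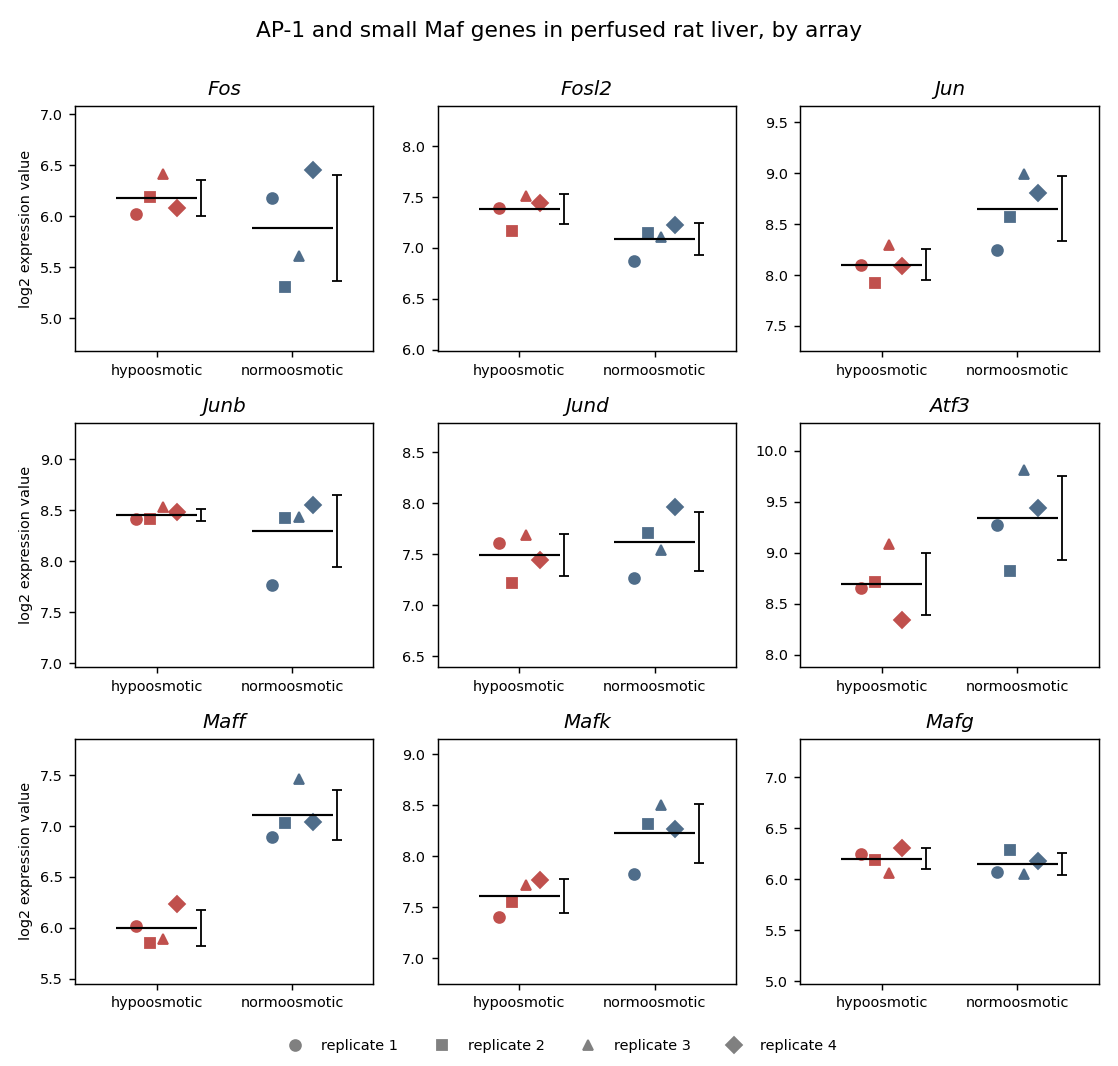
Deposited log2 expression values of the 9 measured genes on each array, hypoosmotic samples at the left and normoosmotic samples at the right of each panel. Points are arrays, with shapes for replicate numbers, lines are group means and bars are ± 1 SD (n = 4 each), and every panel has the same height in log2 units. Maff and Mafk separate completely, and Jun and Atf3 overlap at their edges. The hypoosmotic SD is the smaller one in each panel, by very little in Fosl2 and Mafg.

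Among the small Maf genes, Maff (probe set 10897643) read 6.02, 5.85, 5.89 and 6.24 in hypoosmotic replicates 1 to 4, against 6.89, 7.03, 7.46 and 7.04 in normoosmotic replicates 1 to 4. The nearest readings of the groups, hypoosmotic replicate 4 and normoosmotic replicate 1, were well apart. It averaged 6.00 ± 0.18 in hypoosmotic and 7.11 ± 0.25 in normoosmotic livers (SD, n = 4 each), and the fitted log2 change was −1.105 ± 0.14 (SE; limma, adjusted p = 0.00248). In linear terms that is 2.15-fold lower, with a 95% interval of 1.74-fold to 2.66-fold. Of all 14506 genes, 7 had a fall of this size or more, Maff included. Maff was called in all 17 alternatives run, with adjusted p-values between 0.00112 and 0.0136 and log2 changes between −1.18 and −0.99.

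Mafk (probe set 10760646), which like Maff forms DNA-binding dimers with Nrf2 and with Bach repressors, read 7.40, 7.55, 7.72 and 7.77 in hypoosmotic livers, against 7.82, 8.31, 8.50 and 8.27 in normoosmotic livers. The groups did not overlap, but the gap between the nearest readings, hypoosmotic replicate 4 and normoosmotic replicate 1, was small. Its log2 change of −0.615 ± 0.15 (SE), with a 95% interval of −0.94 to −0.29, missed the threshold (limma, adjusted p = 0.0555). Mafk passed it in 6 of 17 alternatives. These were the filter on dim genes (adjusted p = 0.0475), subtraction of array medians (0.0332), array weights (0.0376), a trended robust prior (0.037), the replicate block (0.0327) and the fit without normoosmotic replicate 1 (0.0254). Without normoosmotic replicate 3 the adjusted p was 0.164, the highest of the 17.

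Mafg (probe set 10749648), the remaining small Maf gene, read 6.25, 6.19, 6.06 and 6.30 in hypoosmotic livers and 6.07, 6.28, 6.05 and 6.18 in normoosmotic livers. The readings of the groups were interleaved. The log2 change was 0.06 (limma, adjusted p = 0.875), with −0.18 to 0.29 as its 95% interval, so the interval includes 0 and leaves out a change of the size seen in Maff.

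**Figure D2:**
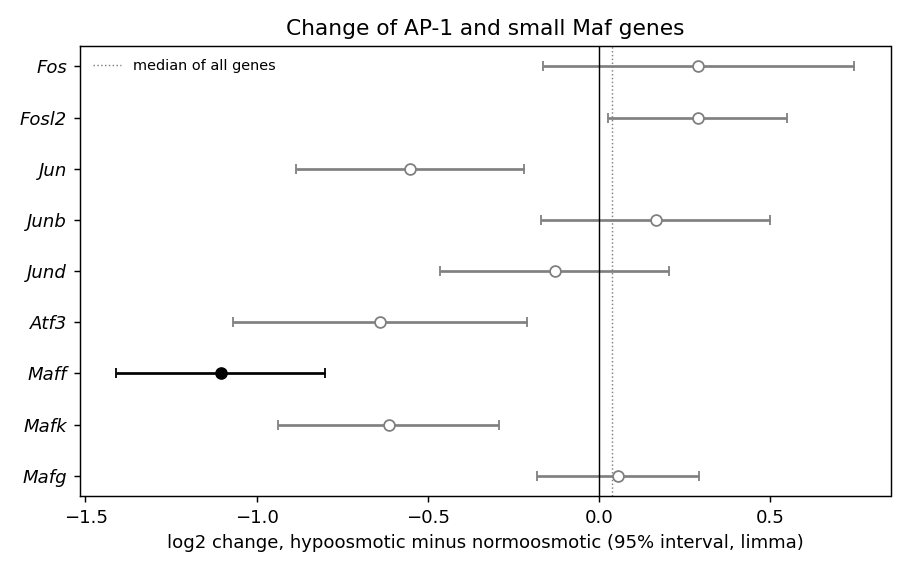
Log2 change, hypoosmotic minus normoosmotic, of each measured gene with its 95% interval from limma. The filled point, Maff, passed an adjusted p of 0.05 over all 14506 genes, open points did not, and the dotted line is the median change of all genes, 0.04.

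Of the Jun family, Jun (probe set 10878112), the main partner of Fos proteins, read 8.10, 7.92, 8.29 and 8.09 in hypoosmotic livers, against 8.25, 8.57, 8.99 and 8.80 in normoosmotic livers. Only hypoosmotic replicate 3 reached into the normoosmotic range, above normoosmotic replicate 1. The log2 change of −0.55 ± 0.15 (SE) had a 95% interval of −0.88 to −0.22 (limma, adjusted p = 0.0874). Jun passed in 1 of 17 alternatives, the fit without normoosmotic replicate 1 (adjusted p = 0.0495). With single arrays left out, the adjusted p from limma ranged up to 0.245 and the change from −0.69 to −0.44. Junb (probe set 10806585), a weaker activator that can compete with Jun for partners, read 8.41, 8.41, 8.53 and 8.48 in hypoosmotic livers and 7.77, 8.42, 8.43 and 8.55 in normoosmotic livers. Apart from normoosmotic replicate 1, all readings lay within 8.41 to 8.55. The log2 change of Junb was 0.17 with an interval of −0.17 to 0.50 (limma, adjusted p = 0.696), and it was −0.01 without normoosmotic replicate 1. Jund (probe set 10790948), a member with steadier expression than Jun or Junb in many tissues, read 7.61, 7.22, 7.69 and 7.44 in hypoosmotic livers and 7.27, 7.71, 7.54 and 7.96 in normoosmotic livers. These ranges overlapped broadly, with a log2 change of −0.13 and an interval of −0.46 to 0.20 (limma, adjusted p = 0.770).

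Of the Fos family, Fos (probe set 10886031) read 6.02, 6.19, 6.42 and 6.08 in hypoosmotic livers, against 6.18, 5.31, 5.61 and 6.45 in normoosmotic livers. The 4 hypoosmotic readings lay inside the normoosmotic range, which spanned 1.14 log2 units against 0.40 in hypoosmotic livers. The log2 change was 0.29 with a 95% interval of −0.16 to 0.74, which covers both directions (limma, adjusted p = 0.593). Fosl2 (probe set 10940628), a slower and longer-lasting member of the family, read 7.39, 7.17, 7.51 and 7.44 in hypoosmotic livers, against 6.87, 7.15, 7.11 and 7.23 in normoosmotic livers. Hypoosmotic replicate 2 was the reading that fell within the normoosmotic range. The log2 change was 0.29 with an interval of 0.03 to 0.55, which missed the threshold over all genes (limma, adjusted p = 0.288). The other Fosl2 probe set, 10940647, had a log2 change of 0.29 with an interval of 0.01 to 0.58 in the fit over all probe sets.

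Atf3 (probe set 10770710), a stress-induced factor that represses as a homodimer and can activate with Jun, read 8.65, 8.71, 9.08 and 8.34 in hypoosmotic livers, against 9.27, 8.82, 9.81 and 9.44 in normoosmotic livers. Hypoosmotic replicate 3 and normoosmotic replicate 2 were the readings that crossed. Its log2 change of −0.64 ± 0.20 (SE) had a 95% interval of −1.07 to −0.21 (limma, adjusted p = 0.126). It passed in 1 of 17 alternatives, without normoosmotic replicate 2 (adjusted p = 0.0482), and the adjusted p was 0.315 without normoosmotic replicate 3.

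The extremes of each group fell on the same arrays for several members. Normoosmotic replicate 1 was the lowest of its group for 6 of the 9 members, namely Fosl2, Jun, Junb, Jund, Maff and Mafk, and the highest for 0. Hypoosmotic replicate 3 was the highest of its group for 6, namely Fos, Fosl2, Jun, Junb, Jund and Atf3. Hypoosmotic replicate 2 was the lowest of its group for 4, namely Fosl2, Jun, Jund and Maff. Normoosmotic replicate 3 was the highest of its group for 4, namely Jun, Atf3, Maff and Mafk, the members lower at an unadjusted p under 0.05. Normoosmotic replicate 4 was the highest for 4 others, namely Fos, Fosl2, Junb and Jund. The SD within a group was smaller in hypoosmotic than in normoosmotic livers for 9 of 9 members, and for 46.1% of all genes. The hypoosmotic and normoosmotic SDs were nearly equal in Mafg (0.104 and 0.107) and Fosl2 (0.147 and 0.155). By range Mafg was slightly wider in hypoosmotic livers (0.24 against 0.23). In Junb the normoosmotic SD includes the outlying 7.77 of replicate 1. The median SD of the members was 0.169 in hypoosmotic and 0.29 in normoosmotic livers, against 0.179 and 0.167 over all genes. The members share the 8 arrays, so these 9 comparisons are not independent, and no test was made of them.

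Whether related genes changed unequally was tested on the difference of their log2 values within each array, in 8 pairs chosen with earlier results of these data known. With 4 arrays a group, the exact permutation test over 70 labellings cannot give a two-sided p below 0.0286. In 5 pairs the test gave that smallest p, and because 5 of 8 did, each had an adjusted p of 0.0457 over the pairs. That adjusted value depends on which pairs were chosen. The ratio of Maff to Mafk was lower in hypoosmotic livers by 0.49 ± 0.13 and that of Maff to Mafg by 1.16 ± 0.16 on the log2 scale (SE over arrays). The Maff to Mafg ratio, relative to its normoosmotic mean, was −1.19, −1.30, −1.13 and −1.02 in hypoosmotic livers, against −0.14, −0.21, 0.45 and −0.10 in normoosmotic livers. The groups lay far apart in a pair chosen with results known, so this only describes an unequal change. It does not show that Mafg was constant.

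The ratio of Jun to Junb was lower in hypoosmotic livers by 0.72 ± 0.11, a factor of 1.64. Relative to its normoosmotic mean it was −0.67, −0.85, −0.60 and −0.75 in hypoosmotic livers, against 0.12, −0.21, 0.20 and −0.11 in normoosmotic livers. The ratio was thus apart in every array, including normoosmotic replicate 1, where Jun and Junb both read low. The ratio of Jun to Jund was lower by 0.42 ± 0.15, and that of Maff to Jun by 0.55 ± 0.14. Fos over Jun had a difference of 0.84 ± 0.34 (exact permutation p = 0.0571, adjusted 0.0762), and normoosmotic replicate 1 lay within the hypoosmotic range. Atf3 over Jun had a difference of −0.09 ± 0.21 and Fos over Fosl2 one of 0.003 ± 0.296, both with overlapping groups, and these errors leave sizeable differences possible. The pairs share genes, are not independent and were chosen with results known, so all these ratios are descriptions only. Without hypoosmotic replicate 2 the count was again 5 pairs, and without any other array it was 0, because fewer than 5 pairs then reached the smallest p.

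**Figure D3:**
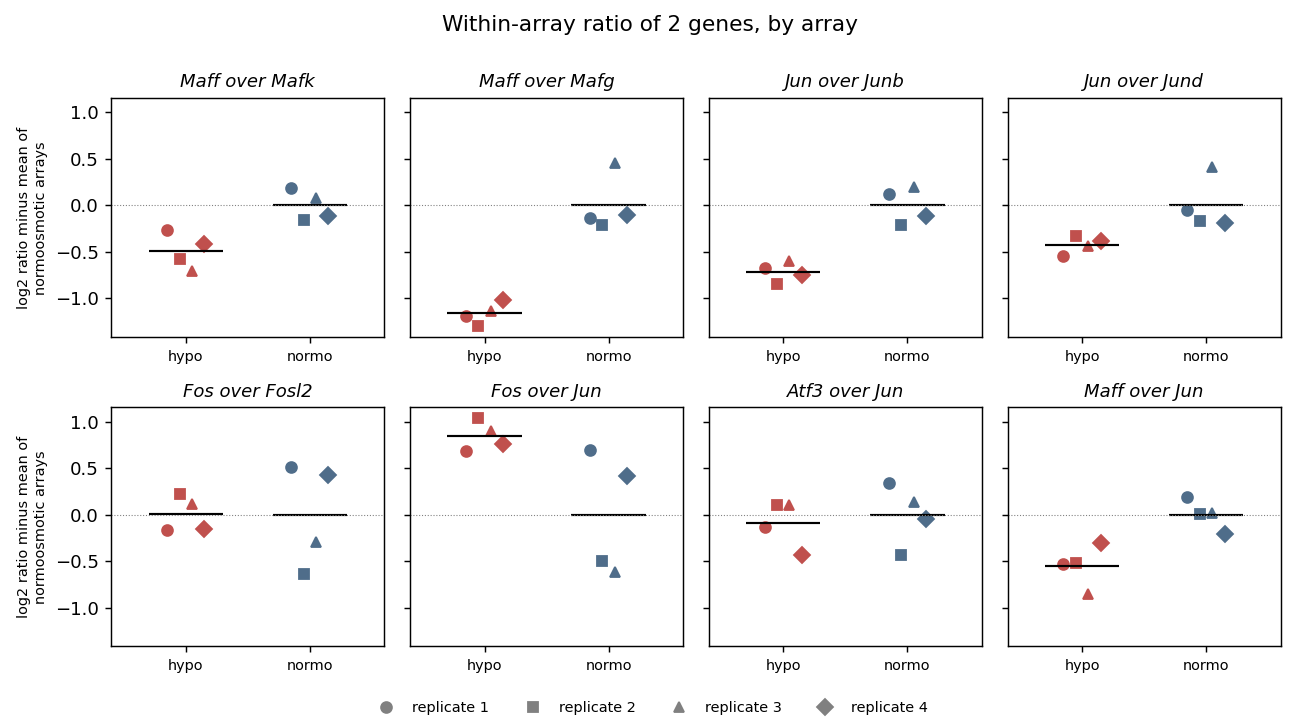
Within-array log2 ratio of 2 genes after subtraction of its mean over the normoosmotic arrays, for 8 pairs, with hypoosmotic (hypo) at the left and normoosmotic (normo) arrays at the right. Points are arrays and lines are group means; the ratio groups do not overlap in the 5 pairs Maff over Mafk, Maff over Mafg, Jun over Junb, Jun over Jund and Maff over Jun.

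Profiles were ranked by mean absolute difference of mean-centred log2 values over the 8 arrays, leaving out uncharacterised and accession-like symbols. Among the genes ranked, those most like Maff were Npepps (0.13 log2 units), an aminopeptidase gene, Bdp1 (0.14), a subunit of an RNA polymerase III initiation factor, and Ammecr1l (0.14). Their log2 changes were −0.85, −1.15 and −0.83. Genes chosen for a profile like that of a member have a like change by that choice, so these changes are a description with no test. Jun was most like Lats2 (0.08), a kinase gene of the Hippo pathway, Cdc42ep1 (0.09) and Ppp2r3a (0.10). Their changes were −0.52, −0.55 and −0.485. Atf3 was most like the clock repressor gene Cry2 (0.15), Rhob (0.15), a small GTPase gene, and Ugcg (0.16), with changes of −0.49, −0.59 and −0.34. Fos was most like Plac8 (0.09), Anxa1 (0.12), which encodes a phospholipid-binding protein, and Vim (0.12), an intermediate filament gene of mesenchymal cells. Like Fos, these last genes read low in normoosmotic replicates 2 and 3, at 5.15 and 5.50 for Plac8, 5.93 and 6.05 for Anxa1 and 7.51 and 7.77 for Vim, against 5.99 and 6.27, 6.45 and 6.79, and 8.05 and 8.53 in normoosmotic replicates 1 and 4.

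Genes around AP-1 and small Maf were described in 8 lists chosen with earlier results of these data known. Over the 8 lists 16 of 124 measured genes were called by limma, against 1.98% of all genes in either direction, and 46 had an unadjusted p under 0.05, which held for 14.6% of all genes. The count of 16 is sensitive to single arrays, at 10, 6 and 7 when hypoosmotic replicate 1, 2 or 3 was left out, and at 6, 10 and 5 for normoosmotic replicate 1, 2 or 3. It was 5 after adding a score of clock gene expression, defined with its values further on, an alternative chosen after seeing the data.

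Of the 17 measured genes of MAP kinase cascades, 2 fell and 0 rose, 9 lay below 0 and 8 above, and the median change was −0.04. The count of 2 was 0 without normoosmotic replicate 3, 0 after adding the clock score, and 1 without hypoosmotic replicate 2 or normoosmotic replicate 1. Mapk8 encodes JNK1, a kinase that phosphorylates Jun, and read 6.17, 5.91, 6.15 and 6.14 in hypoosmotic livers, against 6.95, 6.48, 6.84 and 6.78 in normoosmotic livers. Map2k7 encodes a kinase that activates JNK, and read 5.17, 5.35, 5.29 and 5.40 in hypoosmotic livers, against 6.01, 6.00, 6.00 and 5.73 in normoosmotic livers. Neither gene had overlapping groups. Mapk8 fell by 0.67 ± 0.13 and Map2k7 by 0.63 ± 0.11 (SE; limma, adjusted p = 0.0186 and 0.0141). The call of Mapk8 was lost when hypoosmotic replicate 2 (0.0718) or normoosmotic replicate 1 (0.0579) or 3 (0.065) was left out, and that of Map2k7 without normoosmotic replicate 3 (0.0529). The JNK2 gene Mapk9 had a change of 0.18 with an interval of −0.22 to 0.58, and Map2k4, which encodes the other activator of JNK, one of −0.40 (adjusted p = 0.222).

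Of the 15 measured bZIP partners of Fos and Jun, 1 rose and 0 fell by limma. The gene that rose was Cebpd, which encodes a factor of the acute phase response. Atf7 (−0.63, limma, adjusted p = 0.0629), Creb1 (−0.56) and Atf4 (−0.40) were lower at an unadjusted p under 0.05. Cebpa (0.50), which encodes a hepatocyte factor, was higher at that unadjusted p. Cebpd rose by 0.50 ± 0.11 (SE; adjusted p = 0.0428) and lost the call whichever single array was left out (0.0501 to 0.117). The count called in this list was 2 under quantile normalization, subtraction of array medians and array weights. It was 1, a gene other than Cebpd, without hypoosmotic replicate 1 or 4 or normoosmotic replicate 4. Without any other single array the count was 0. Of the 8 large Maf, Nrf2-related and Bach genes, 0 were called and 0 had an unadjusted p under 0.05. Among these, Nfe2l2, which encodes Nrf2, had a change of 0.22 (95% interval −0.04 to 0.48) and Maf one of 0.25 (−0.09 to 0.59). Of 8 factors that act on the Fos and Jun promoters, 1 fell, Mef2a, by 0.46 ± 0.10 (adjusted p = 0.0422), and it kept the call in 7 of 16 alternatives. Among the arrays left out one at a time, hypoosmotic replicate 4 was the exception that left it called (0.047), and without each of the rest the adjusted p was 0.0609 to 0.133. The Srf gene, whose product binds the CArG element, averaged 7.39 ± 0.18 in hypoosmotic and 6.94 ± 0.62 in normoosmotic livers (SD, n = 4 each), and its change had an interval of −0.06 to 0.97.

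Messenger RNAs of early response genes carry AU-rich elements that steer their decay. Of 10 measured genes for that decay or for turnover of the Jun protein, 3 fell and 0 rose, with a median log2 change of −0.28. Zfp36l1, which encodes a decay factor that binds such elements, read 10.29, 10.24, 10.39 and 10.26 in hypoosmotic livers, against 10.98, 11.27, 11.24 and 11.39 in normoosmotic livers. Its relative Zfp36l2 read 7.28, 7.08, 7.44 and 7.43 in hypoosmotic livers, against 8.17, 8.04, 7.93 and 8.50 in normoosmotic livers. In both genes the groups were clearly apart, and both were called in all 16 alternatives run. Zfp36l1 fell by 0.93 ± 0.12 and Zfp36l2 by 0.85 ± 0.14 (SE; limma, adjusted p = 0.00248 and 0.00936). Elavl1, which encodes a stabilizing AU-rich binding protein, fell by 0.61 ± 0.13 (adjusted p = 0.0264). The call of Elavl1 was lost without hypoosmotic replicates 1, 2 and 3 (0.0728, 0.1 and 0.0592) and without normoosmotic replicates 1, 3 and 4 (0.0865, 0.0768 and 0.054). Zfp36, the founding member of this decay family, had a change of 0.08 with an interval of −0.19 to 0.34. The members that fell thus have opposite known effects on AU-rich mRNAs.

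**Figure D4:**
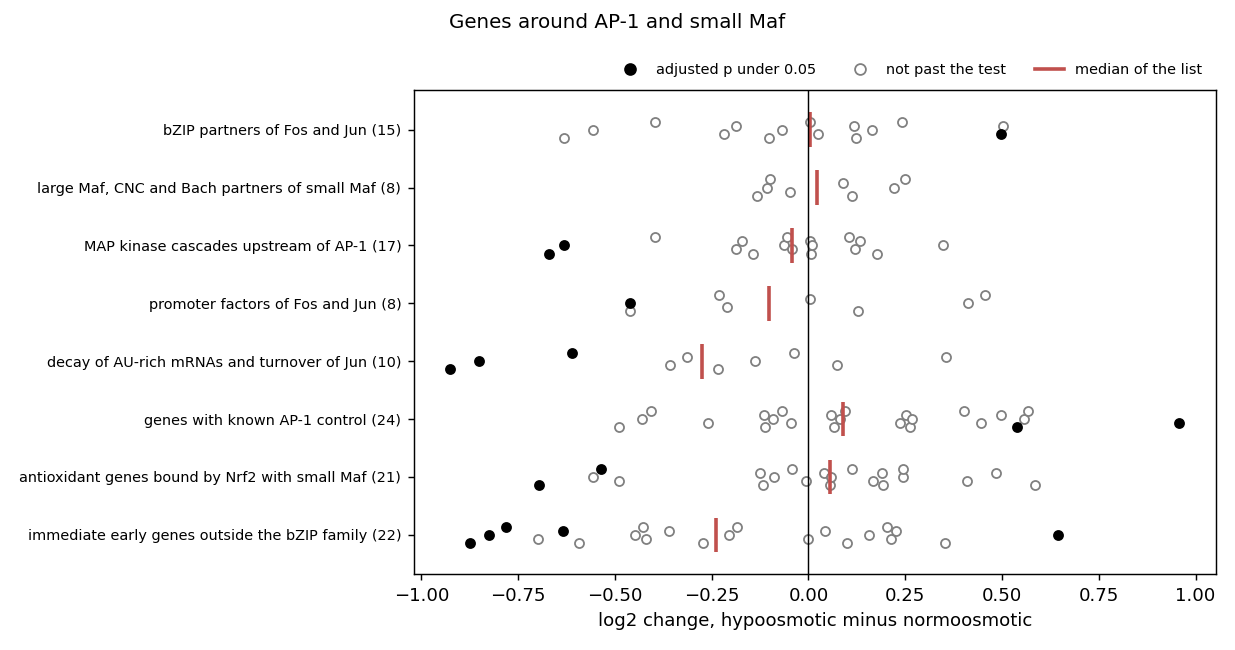
Log2 change, hypoosmotic minus normoosmotic, of every measured gene in 8 lists around AP-1 and small Maf, with the number measured in parentheses. Filled points passed an adjusted p of 0.05 over all genes, open points did not, red bars are list medians, and vertical offsets within a list only separate points. The AU-rich decay list (median −0.28) and the immediate early list (median −0.24) lie furthest to the left.

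Of 24 measured genes with known AP-1 control, 2 rose and 0 fell by limma, with 11 at an unadjusted p under 0.05 in either direction and a median change of 0.09. The protease inhibitor gene Timp1 read 8.52, 9.0, 9.21 and 9.17 in hypoosmotic livers, against 8.02, 7.61, 7.86 and 8.58 in normoosmotic livers, so the groups touched at hypoosmotic replicate 1 and normoosmotic replicate 4. It rose by 0.96 ± 0.20 (SE; adjusted p = 0.0282), and the cytokine gene Lif rose by 0.54 ± 0.11 (adjusted p = 0.024). Both calls were lost without hypoosmotic replicates 2 and 3 and without normoosmotic replicates 1, 2 and 3, with adjusted p-values of 0.0653 to 0.0941 for those of hypoosmotic replicates and 0.0619 to 0.0858 for those of normoosmotic ones. Timp1 also lost it without hypoosmotic replicate 4 (0.0564) and Lif without hypoosmotic replicate 1 (0.0562). Matrix metalloproteinase genes, which are textbook AP-1 targets, were not called, with changes between −0.11 for Mmp9 and 0.40 for Mmp12.

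Of 21 measured antioxidant genes bound by Nrf2 with a small Maf, 2 fell and 0 rose by limma, with 6 at an unadjusted p under 0.05 in either direction and a median change of 0.06. Those that fell were the export pump gene Abcc2, by 0.70 ± 0.11, and Sqstm1, an autophagy receptor gene, by 0.54 ± 0.11 (SE; adjusted p = 0.00752 and 0.0237). Abcc2 was called in all 16 alternatives run and Sqstm1 in 8, and Sqstm1 lost the call without hypoosmotic replicates 1, 2 and 3 and normoosmotic replicates 1, 2 and 3 (0.0531 to 0.0899). The enzyme genes Nqo1, Hmox1, Gclc and Gclm had changes of 0.585, −0.49, 0.06 and 0.19 and were not called.

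Of 22 measured immediate early genes outside the bZIP family, 4 fell, Myc by 0.825 ± 0.125, Klf6 by 0.78 ± 0.14, Ier3 by 0.635 ± 0.127 and Dusp1 by 0.875 ± 0.18 (SE; limma, adjusted p = 0.00581, 0.0129, 0.0229 and 0.0258), and 1 rose, the stress gene Gadd45b, which was chosen after its values were seen. Gadd45b read 8.82, 9.14, 9.0 and 9.20 in hypoosmotic livers, against 8.28, 8.12, 8.43 and 8.75 in normoosmotic livers, without overlap. It rose by 0.645 ± 0.145 (SE; limma, adjusted p = 0.0399), and lost the call without hypoosmotic replicates 2, 3 and 4 (0.13, 0.0843 and 0.0696) and normoosmotic replicates 1, 2 and 3 (0.113, 0.091 and 0.0921). Dusp1, which encodes a phosphatase of MAP kinases, read 8.25, 8.67, 8.34 and 8.44 in hypoosmotic livers, against 9.10, 8.89, 9.37 and 9.84 in normoosmotic livers. Its call was lost without hypoosmotic replicates 1, 2 and 3 (0.0707, 0.0558 and 0.0752) and normoosmotic replicates 1 and 3 (0.0508 and 0.0799). Ier3 lost its call without hypoosmotic replicates 1, 2 and 3 (0.0633, 0.0801 and 0.0651) and normoosmotic replicates 1, 3 and 4 (0.07, 0.0731 and 0.0544).

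Among all named genes, 287 were called, 81 higher and 206 lower, and leaving out single arrays gave 81 to 365. Hepatocyte markers were bright in both groups, with Alb at 12.94 to 13.08 in hypoosmotic and 13.06 to 13.08 in normoosmotic livers, and Hnf4a averaged 9.13 ± 0.12 in hypoosmotic and 8.89 ± 0.14 in normoosmotic livers (SD, n = 4 each). Of 56 measured markers in 9 cell type lists, 0 were called by limma and 6 had an unadjusted p under 0.05, against 14.6% of all genes. Those 6 were Hbb, Alas2, Cd3d, Prf1, Reln and Spp1, named after their values were seen. All 4 erythroid markers lay below 0, with Hbb at 6.70, 7.44, 6.19 and 6.33 in hypoosmotic livers, against 6.35, 7.78, 7.63 and 8.31 in normoosmotic livers, and a change of −0.85 (adjusted p = 0.279). Alas2 had a change of −0.23 (adjusted p = 0.337), without overlap between groups. The mean level of the erythroid markers was 4.15 to 4.84 over hypoosmotic and 4.45 to 4.93 over normoosmotic livers. The 7 T and NK cell markers had a median change of 0.25, with 4 above 0 and 3 below. Their mean level was 3.09 to 3.39 over hypoosmotic and 3.08 to 3.26 over normoosmotic livers. These levels are below the array medians of 4.05 to 4.16. Of the 10 macrophage markers 9 lay above 0, with a median change of 0.12, and 0 had an unadjusted p under 0.05 by limma. Of all 14506 genes, 8448 lay above 0 and 6058 below, with a median change of 0.04. The mean level of the 10 macrophage markers was 6.56 to 7.14 over hypoosmotic and 6.46 to 6.98 over normoosmotic livers, and that of the 7 neutrophil markers was 2.60 to 2.88 over hypoosmotic and 2.63 to 2.85 over normoosmotic livers. The part of cell makeup in the readings of the members was not tested. Clock genes differed among the normoosmotic samples. A clock score (mean log2 of Bmal1 with Npas2, less the mean of Dbp with Per3) was 1.38, 1.09, −0.52 and −0.06 in hypoosmotic replicates 1 to 4, against −2.81, 1.27, −3.39 and 1.49 in normoosmotic replicates 1 to 4. With this score as a covariate 92 genes were called, and the change of Maff was −1.05 (limma, adjusted p = 0.0104) and that of Mafk −0.61 (0.129).

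**Figure D5:**
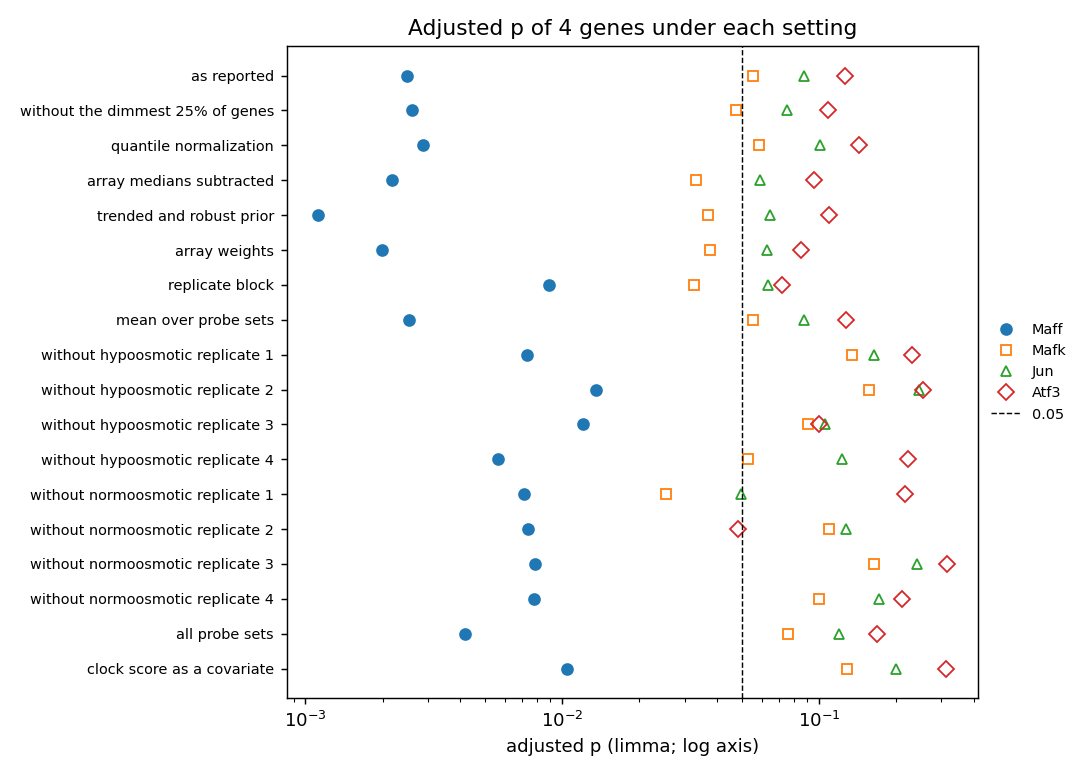
Adjusted p from limma, on a log axis, for Maff, Mafk, Jun and Atf3 as reported and under 17 other settings, with a dashed line at 0.05. Maff lies between 0.00112 and 0.0136 throughout, Mafk crosses the line in 6 settings, and Jun and Atf3 cross it in 1 each.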

How the data were processed

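Total RNA of 8 samples of perfused rat liver was extracted with Trizol, labelled with biotin and measured on 1-colour Affymetrix arrays, per the labels' protocols. Transcriptome Analysis Console 4.0 is named per the submitters' processing notes, and the probe summarisation, background step, normalization and genome build have no source here. The table as deposited holds the authors' log2 expression values for 27596 probe sets, used as deposited, with array medians of 4.05 to 4.16. Their range, 0.88 to 13.26, is the basis for taking them as log2. No detection call was used, and the number of arrays limits precision.

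Of the probe sets, 15310 had 1 gene symbol in the platform annotation, 323 several and 11963 none. Symbols were updated by gene ID through RefSeq (GRCr8), and 14506 genes remained. Groups were compared with limma 3.58.1 in R 4.3.3 (lmFit and eBayes, group as the only term, two-sided), adjusted over all genes by Benjamini-Hochberg, called under 0.05. The fit was tested on simulated data in 20 runs. It recovered 35% of changes of 0.5 log2 units and 88.6% of changes of 1, with 4.13% false calls. A gene that did not pass is therefore not shown to be unchanged. Pairs were tested by an exact permutation test of within-array differences (Python 3.11.15, numpy 2.4.6).

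Named genes were all members, up to 4 called genes per pathway list (2 with the largest change where none was called), 3 genes most alike in profile to each of Maff, Jun, Atf3 and Fos, called cell type markers, and Alb and Hnf4a. The ranking of profiles left out uncharacterised and accession-like symbols. Other list genes given as values without a call were chosen after their values were seen. Members, lists and pairs were chosen with earlier results of these data known. Alternatives were other normalizations, priors, weights, filters, probe set rules, the replicate block and leaving out each array.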

Additional observations from a re-analysis of the deposited data

Results flagged for a closer look

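In 4 groups of 4 samples, 1 reading lay far from the rest by Dixon's criterion, of 82 groups examined, where chance flags about 1 in 20. Junb read 7.77 in normoosmotic replicate 1 against 8.42 to 8.55 in the other normoosmotic samples. Mapk8 read 5.91 in hypoosmotic replicate 2 against 6.14 to 6.17 in the other hypoosmotic samples. Map2k7 read 5.73 in normoosmotic replicate 4 against 6.00 to 6.01 in the others, and Ammecr1l read 7.42 in normoosmotic replicate 3 against 7.06 to 7.11. Among the 18 groups of the members themselves, the one of Junb was the 1 that stood out.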

How the results depend on the processing

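Maff was lower and called in all 17 alternatives. The count of members called lower, 1 as reported, was 2 without the dimmest 25% of genes, with array medians subtracted, under array weights, under a trended robust prior and under the replicate block, Mafk being the addition. It was 3 at an adjusted p under 0.1, and 1 to 3 when single arrays were left out. Members called higher stayed at 0 by limma in all 18 alternatives. The 287 called genes became 601 at an adjusted p under 0.1 and 92 after adding the clock score, and ranged from 81 to 365 without single arrays. The 16 called genes of the pathway lists became 5 with the clock score and ranged from 5 to 16 without single arrays. The 5 pairs with unequal change became 0 when labels were permuted within replicate numbers (replicate block), where no p under 0.125 is possible, and ranged from 0 to 5 without single arrays. The change of Junb turned to −0.0092 without normoosmotic replicate 1, and without single arrays it ranged up to 0.2508. The small difference between Fos and Fosl2 turned to −0.07 and −0.03 without hypoosmotic replicates 2 and 3 and to −0.21 and −0.10 without normoosmotic replicates 2 and 3, with a highest value of 0.1733 without normoosmotic replicate 1. That between Atf3 and Jun turned to 0.0275 without hypoosmotic replicate 4 and to 0.025 without normoosmotic replicate 1, with a lowest value of −0.2317 without normoosmotic replicate 2. The causes were not tested. With the replicate number as a block, 256 genes were called and the adjusted p of Maff was 0.00889. Deviations from group means correlated at 0.05, 0.03, 0.08 and 0.17 between arrays of the same number, and only hypoosmotic replicate 4 correlated best with its own number, so the numbers were not taken as pairs.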
